A study of Mus musculus with 4 samples.

Results

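Type I interferon-stimulated genes are the genes that a cell switches on when interferon alpha or beta binds its receptor. The set described here was a list of 41 gene symbols, chosen by name and not by a value measured in these cells, and 40 of them matched rows of the 27998-gene count table. Mx2 was not analysed here. The list holds the ubiquitin-like modifier Isg15 and its enzymes, the RNA-binding Ifit genes, the transcription factors of the pathway, the oligoadenylate synthetases, Mx1, the viperin locus, membrane restriction factors, nucleic acid sensors, ADP-ribosyltransferases and 11 other members. They were followed as unique molecular identifiers (UMIs, each standing for 1 captured transcript) in 22424 cells kept of 23455 cell barcodes.

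The study asked how the transcription factor Ovol1 bears on psoriasis-like inflammation and thickening of mouse skin. Single cells sorted from back skin of CD1 mice aged 7 to 8 weeks were profiled with 10x Genomics droplet libraries that read transcript 3′ ends. The 4 groups were imiquimod-treated skin labelled Ovol1 null, untreated skin labelled Ovol1 null, imiquimod-treated control skin and untreated control skin. Treated backs, shaved, received 1 dose of 62.5 mg of cream with 5% imiquimod, an agonist of Toll-like receptor 7 (TLR7). The labels used here do not say which part of Ovol1 was deleted, in which cells, or how many animals went into a library. Each group was 1 library, so there was no replicate check and no test between groups, and no p-value is given.

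The kept libraries held 55240722 UMIs in labelled-null imiquimod cells, 31563084 in labelled-null untreated cells, 29706480 in control imiquimod cells and 37278167 in control untreated cells, with 5564, 5219, 5581 and 6060 cells in the same order. The labelled-null imiquimod library stood apart in depth. Its cells had a median of 8395.5 UMIs, against 5706, 4760.0 and 5704.5 in the others, and its shallowest kept cell had 3039 UMIs, against 1413 to 1456. Ovol1 transcripts were not lower in the libraries labelled null, at 45.5 and 24.2 CPM, a gene's UMIs per 1e6 UMIs of the same cells, against 22.7 CPM in control imiquimod and 9.15 CPM in control untreated cells. A 3′ tag can lie outside a deleted part, so this neither checks nor contradicts the genotype, and the libraries are called by their labels throughout. Between 112 and 121 kept cells of each library carried a barcode sequence that another library also had.

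Cells were clustered without the members themselves, and clusters were named from markers, so that each class name means cells resembling that type. The 8 classes with at least 50 cells in every library were basal, suprabasal, upper hair follicle and bulge keratinocytes, fibroblasts, mural cells (the contractile cells around small vessels), macrophages or monocytes, and T or NK cells. The labelled-null imiquimod library filled different joint clusters from the others. Of its 833 basal keratinocytes 85.8%, and of its 288 suprabasal keratinocytes 92.4%, lay in joint cluster 7, whereas the basal keratinocytes of the other libraries lay mainly in clusters 2 and 4 and their suprabasal ones in clusters 6 and 10. Of its 3145 fibroblasts, 78.4% lay in joint cluster 0. Clusters 7 and 0 were left unnamed jointly by the naming rules given below, and their cells were assigned by clustering that library on its own. Its suprabasal keratinocytes also held 11606 CPM of the basal keratin Krt14, against 1365 CPM in labelled-null untreated, 2079 CPM in control imiquimod and 1106 CPM in control untreated suprabasal cells. Control imiquimod fibroblasts also lay apart, with 79.2% in cluster 3 and 11.8% in cluster 22, whereas untreated fibroblasts of both labels lay mainly in clusters 1, 5, 8 and 14, so the imiquimod ratios in fibroblasts compare cells of different clusters in both pairs. Of labelled-null imiquimod upper hair follicle keratinocytes 73.6% lay in cluster 19 and 19.9% in cluster 7, against 88.9% of labelled-null untreated ones in cluster 11, which also held 76.2% and 79.0% of control imiquimod and untreated ones. What these differences contribute to the results was not tested.

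As background, type I interferons signal through the receptor chains Ifnar1 and Ifnar2 and the kinases Jak1 and Tyk2, which phosphorylate Stat2 among other targets. Phosphorylated Stat2 joins Irf9 in a complex that enters the nucleus and binds a short element, the interferon-stimulated response element, in front of its target genes. In skin, interferons guard keratinocytes and dermal cells against viruses, and plasmacytoid dendritic cells that carry TLR7 are known as strong producers.

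The response element has the core GAAANNGAAA, or TTTCNNTTTC on the other strand. RefSeq promoter windows of build GRCm38.p6, from 250 bases before to 50 bases after a gene's start, were at hand for 31 members and were searched on both strands, with overlapping matches allowed. The core was found in 16 of 31 members (51.6%) and in 1079 of 27025 genes (3.99%). Members with a match were Apol9a, Apol9b, Bst2, Ddx58, Ddx60, Eif2ak2, Ifih1, Ifit1, Ifit3, Ifitm3, Isg15, Oas1a, Oas3, Rsad2, Stat2 and Trim30a. A match describes the letters and shows neither a bound site nor a cause, and a window without one says only that these letters are not in it. The windows below belong to members whose levels are described further on, and are written 5′ to 3′ on the gene's own strand with the motif in capitals.
Isg15 chr4:156200871-156200900, minus strand, motif 72 bases before the gene's start: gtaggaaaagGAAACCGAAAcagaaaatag
Ifit1 chr19:34640794-34640823, plus strand, motif 85 bases before the gene's start: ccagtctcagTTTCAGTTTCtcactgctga
Ifit3 chr19:34583397-34583426, plus strand, motif 122 bases before the gene's start: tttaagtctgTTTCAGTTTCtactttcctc
Bst2 chr8:71537577-71537606, minus strand, motif 124 bases before the gene's start: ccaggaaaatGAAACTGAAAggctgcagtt
Oas1a chr5:120907520-120907549, minus strand, motif 14 bases before the gene's start: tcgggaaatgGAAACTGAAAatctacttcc
Ifitm3 chr7:141010706-141010735, minus strand, motif 19 bases after the gene's start: aaacttctgaGAAACCGAAActgccgcaga
Apol9a chr15:77411120-77411149, minus strand, motif 59 bases before the gene's start: gaggtgagacTTTCAGTTTCcatttcccag
Apol9b chr15:77729025-77729054, plus strand, motif 37 bases before the gene's start: gaggtgagacTTTCAGTTTCcatttcccag

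Isg15 had 3 overlapping matches, of which the middle one is shown, and each of the other 7 genes had 2, of which 1 is shown. The Ifit1 and Ifit3 windows hold the same 10 letters, TTTCAGTTTC. The windows of Apol9a and Apol9b are the same over all the letters shown, and reads of such near-identical copies cannot always be assigned to one gene, so their separate values are uncertain. The same holds for Ifit3, Oas1a and Trim30a, which have close copies outside the list. Parp9 and Dtx3l start 681 bases apart on opposite strands in the GENCODE vM21 annotation. No window was at hand for Ifi27l2a, Oas2, Mx1, Mx2, Usp18, Rtp4, Zbp1, Dhx58, Parp9 and Parp14.

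Imiquimod-treated skin carried more member transcripts in every class. Summed over all 40 genes and all kept cells, member UMIs made up 101 of every 10000 UMIs in labelled-null imiquimod cells and 12.7 in labelled-null untreated cells, and 66.3 in control imiquimod cells and 16.7 in control untreated cells. Mural cells had 162 member UMIs per 10000 in the labelled-null imiquimod library and 13.1 in the labelled-null untreated one, and 112 and 16.6 in control imiquimod and control untreated cells. Fibroblasts had 141 and 21.9 in labelled-null imiquimod and untreated cells, and 90.4 and 22.1 in control imiquimod and untreated cells. These dermal classes reached the highest summed levels under imiquimod among the 8 compared, an order that changes without the membrane protein gene Ifitm3. Without it macrophages or monocytes had 53.0 member UMIs per 10000, mural cells 58.1 and fibroblasts 47.9 in labelled-null imiquimod skin, and 56.7, 45.5 and 37.7 in control imiquimod skin. By the same count T or NK cells had 36.4 and 45.2 in labelled-null and control imiquimod skin. Upper hair follicle keratinocytes had 37.6 and 44.9, and basal keratinocytes 26.5 and 37.8. Control imiquimod fibroblasts thus lay no higher than these classes. Suprabasal keratinocytes were low without treatment, at 2.69 in labelled-null and 2.91 in control cells, and had 44.4 and 29.2 with imiquimod in labelled-null and control cells.

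The imiquimod over untreated ratio of the summed level was largest in upper hair follicle keratinocytes of both pairs, at 21.0-fold (19.3 to 22.8) in the labelled-null pair and 18.1-fold (16.5 to 20.0) in the control pair. The bracketed ranges, here and below, are exact 95% intervals that cover counting error only and say nothing of differences between animals. In the labelled-null pair the other ratios were 16.5 in suprabasal, 12.6 in bulge and 6.90 in basal keratinocytes, 12.4 in mural cells, 10.5 in macrophages or monocytes, 6.45 in fibroblasts and 5.01 in T or NK cells. In the control pair they were 10.0 in suprabasal, 6.28 in bulge and 5.85 in basal keratinocytes, 6.76 in mural cells, 5.66 in macrophages or monocytes, 4.10 in fibroblasts and 5.33 in T or NK cells.

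Most of the summed level in untreated basal keratinocytes and fibroblasts was 1 gene. Ifitm3, an endosomal membrane protein that blocks virus entry, held 59.9% of all member UMIs, and in basal keratinocytes 59.4% in labelled-null imiquimod and 84.2% in labelled-null untreated cells, and 38.5% in control imiquimod and 83.1% in control untreated cells. In untreated fibroblasts it held 76.9% in labelled-null and 76.0% in control cells. Its untreated share was smaller in macrophages or monocytes, at 37.9% and 47.5% in labelled-null and control cells. It was 18.6% in labelled-null untreated T or NK cells, and in control untreated ones Ifi27l2a led with 27.9%. Without Ifitm3, a choice made after its share was seen, the ratio in basal keratinocytes was 17.8 in the labelled-null pair and 21.2 in the control pair, and in fibroblasts 9.48 in the labelled-null pair and 7.11 in the control pair. The other 39 members together therefore differed between treated and untreated skin by a larger factor than the full sum in these 2 classes.

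**Figure D1:**
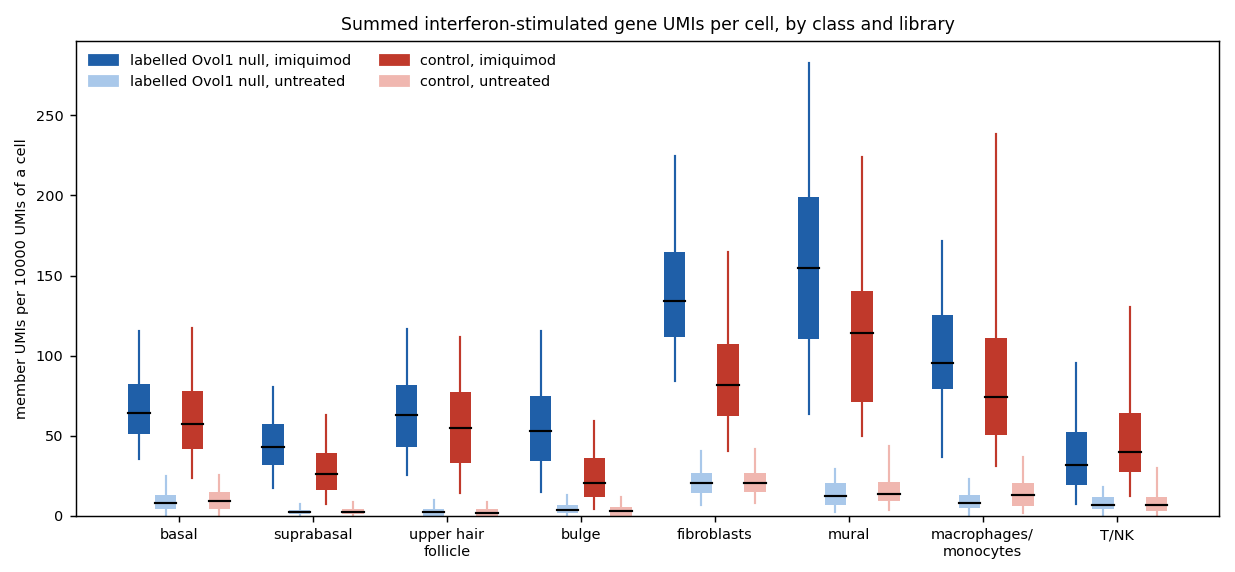
Member UMIs per 10000 UMIs of a cell (vertical axis) in 8 cell classes and 4 libraries. Boxes span the 25th to 75th percentile of cells, lines the 5th to 95th, and the black bar is the median; in every class both imiquimod medians lie above both untreated medians, with the highest medians in mural cells and fibroblasts.

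Gene by gene, most members were higher with imiquimod. A member was measured in a class where the 2 libraries together held at least 20 of its UMIs, and entered the counts below where its CPM ratio was at least 2 either way. In the labelled-null pair 209 of 239 measured pairs of member and class were at least 2-fold higher with imiquimod, against 8.73% of all gene and class pairs, and 1 was at least 2-fold lower, against 14.3% of all pairs. In the control pair 202 of 215 were higher, against 6.79%, and 0 were lower, against 7.76%. Both shares of higher members lay far above the share of all genes. Members seen only under imiquimod had to differ in order to be measured, so these counts describe the measured members and not the whole list.

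By class, the labelled-null pair had 33 of 37 in basal keratinocytes (9.37%), 30 of 33 in suprabasal keratinocytes (9.58%), 33 of 35 in upper hair follicle keratinocytes (10.6%), 17 of 17 in bulge keratinocytes (4.91%), 34 of 40 in fibroblasts (5.62%), 29 of 32 in mural cells (10.6%), 20 of 24 in macrophages or monocytes (12.3%) and 13 of 21 in T or NK cells (8.97%) at least 2-fold higher, each followed in brackets by the share of all genes in that class. The control pair had 37 of 37 in basal keratinocytes (4.53%), 30 of 32 in suprabasal keratinocytes (5.43%), 31 of 32 in upper hair follicle keratinocytes (4.89%), 15 of 15 in bulge keratinocytes (8.84%), 36 of 39 in fibroblasts (10.2%), 14 of 15 in mural cells (6.49%), 22 of 25 in macrophages or monocytes (6.39%) and 17 of 20 in T or NK cells (7.17%) at least 2-fold higher. In every class the members' share was several times that of all genes. The median log2 ratio of measured members, with 0.5 UMI added to each count, was 4.62 in labelled-null and 4.58 in control upper hair follicle keratinocytes, against -0.14 and -0.15 over all genes. In fibroblasts it was 2.46 in labelled-null and 2.19 in control cells, against -0.24 and 0.01 over all genes. With members at 0 UMIs set to 3 counts instead, the medians were 3.23 in labelled-null and 3.47 in control upper hair follicle keratinocytes, and 2.46 and 2.19 in labelled-null and control fibroblasts. The members' medians lay above those of all genes in each of these cells.

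**Figure D2:**
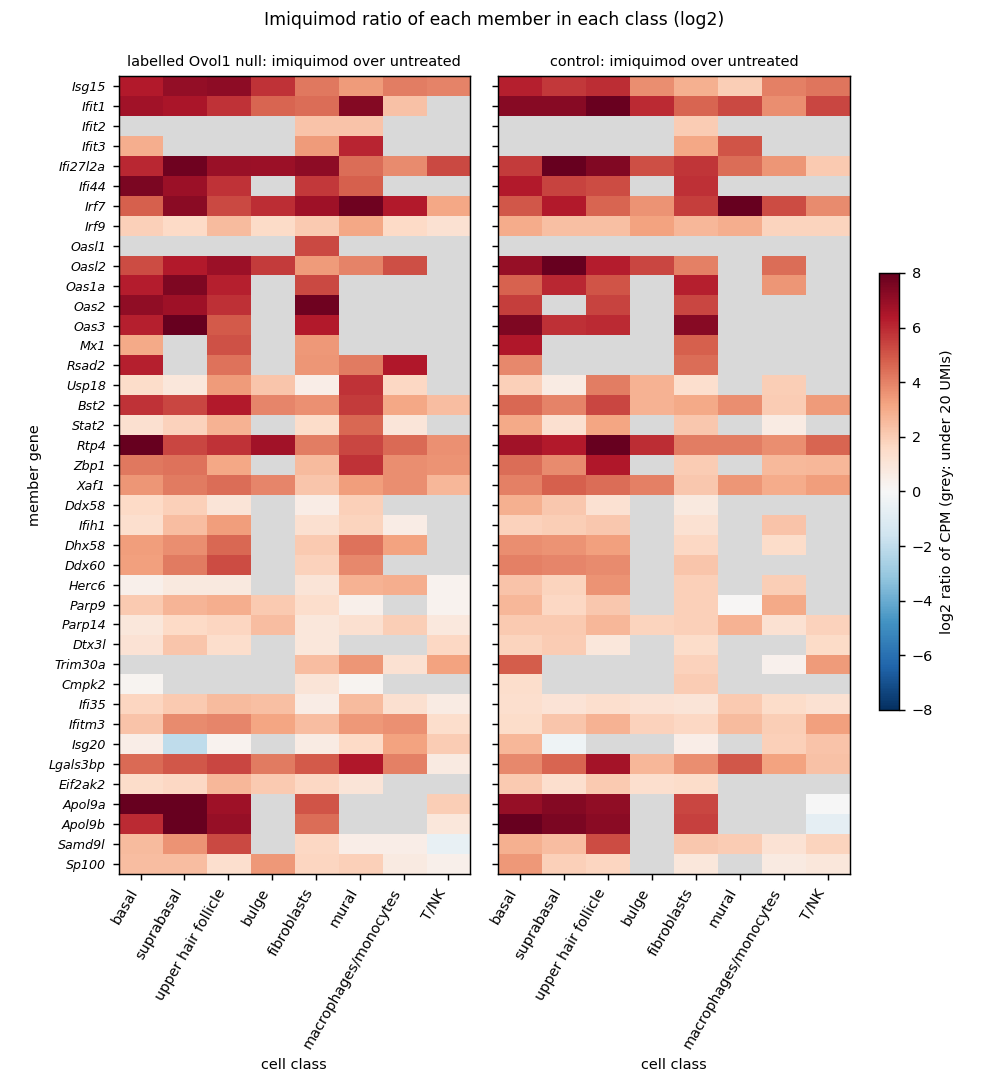
Log2 ratio of CPM, imiquimod over untreated, for 40 members (rows) in 8 classes (columns), with the labelled-null pair on the left and the control pair on the right; 0.5 UMI was added to each count, grey marks under 20 UMIs, and colour stops at 8 either way. Nearly all measured squares are on the higher side in both pairs, and the 1 square past 2-fold lower is Isg20 in labelled-null suprabasal keratinocytes.

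The Isg15 system attaches the ubiquitin-like Isg15 protein to other proteins. In basal keratinocytes Isg15 had 217 CPM with imiquimod and 2.64 CPM untreated in the labelled-null libraries, and 146 CPM with imiquimod and 1.88 CPM untreated in the control libraries. In fibroblasts it had 391 CPM in labelled-null imiquimod cells against 21.2 CPM in labelled-null untreated cells, and 151 CPM in control imiquimod cells against 20.7 CPM in control untreated cells. It was high in both imiquimod libraries, by 82.1-fold (53.6 to 133) in labelled-null and 77.6-fold (42.1 to 162) in control basal keratinocytes, and by 18.5-fold and 7.29-fold in labelled-null and control fibroblasts. Usp18, the protease that removes Isg15 and also damps signalling at the receptor, differed less in fibroblasts. In fibroblasts it had 47.0 CPM with imiquimod and 32.2 CPM untreated in the labelled-null libraries, and 97.7 CPM with imiquimod and 39.3 CPM untreated in the control libraries, ratios of 1.46 (1.30 to 1.64) and 2.48 (2.27 to 2.72) in the labelled-null and control pairs. Its ratios over classes were 1.46 to 11.9 in the labelled-null and 1.60 to 20.2 in the control pair. Where a member had 0 untreated UMIs its ratio was computed against 3 counts and is a lower bound, also within such ranges. Herc6, the main Isg15 ligase of the mouse, had ratios of 1.25 to 10.0 over 7 classes of the labelled-null pair and of 3.70 to 14.8 over 5 classes of the control pair.

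Ifit proteins bind foreign RNA and block its translation. Ifit1 had 20.2 CPM under imiquimod and 0.126 CPM without it in labelled-null basal keratinocytes, and 72.2 CPM under imiquimod and 0.376 CPM without it in control basal keratinocytes. Its untreated basal levels rested on 1 UMI in labelled-null and 2 UMIs in control cells, so that the ratios of 161 (28.6 to 6375) and 192 (52.9 to 1587) have wide intervals. In fibroblasts Ifit1 had 65.3 CPM in labelled-null imiquimod cells against 2.96 CPM in labelled-null untreated cells, and 108 CPM in control imiquimod cells against 4.22 CPM in control untreated cells. In mural cells it had 229.7 CPM with imiquimod and 0 UMIs untreated in the labelled-null libraries, a ratio of at least 27.4, and 307 CPM and 6.94 CPM in control imiquimod and untreated cells, a ratio of 44.2 (14.4 to 220.3). Ifit3, which binds and stabilises Ifit1, was mainly a transcript of the dermal classes. It had 290.5 CPM in labelled-null and 183 CPM in control mural cells under imiquimod, and 80.1 CPM and 60.3 CPM in labelled-null and control fibroblasts, but 2.31 CPM and 1.84 CPM in labelled-null and control basal keratinocytes. Ifit2 reached 20 UMIs in 2 classes of the labelled-null pair, with ratios of 4.99 to 7.03, and in 1 class of the control pair, fibroblasts, with a ratio of 4.10.

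Among the transcription factors, Irf7, which drives further interferon gene transcription, differed more than Irf9 and Stat2 in fibroblasts and basal keratinocytes. In fibroblasts Irf7 had 631 CPM with imiquimod and 5.75 CPM untreated in the labelled-null libraries, and 343 CPM with imiquimod and 7.31 CPM untreated in the control libraries, ratios of 109.7 (86.8 to 141) and 46.9 (40.1 to 55.3) in the labelled-null and control pairs. In basal keratinocytes it had 58.0 CPM in labelled-null imiquimod cells against 2.01 CPM in labelled-null untreated cells, and 90.2 CPM in control imiquimod cells against 2.82 CPM in control untreated cells. In mural cells Irf7 reached 926 CPM in labelled-null imiquimod cells against 1 UMI untreated, and 579 CPM in control imiquimod cells against 0 UMIs untreated, a ratio of at least 83.5. Irf9, which carries Stat2 to DNA, was already present without treatment. In basal keratinocytes it had 47.8 CPM in labelled-null imiquimod cells against 13.0 CPM in labelled-null untreated cells, and 94.9 CPM in control imiquimod cells against 12 CPM in control untreated cells, and its ratios over classes were 2.38 to 9.82 in the labelled-null and 3.40 to 9.96 in the control pair. Stat2 had ratios of 1.97 to 7.34 over 6 classes of the labelled-null pair and 1.51 to 9.71 over 5 classes of the control pair.

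The oligoadenylate synthetases make short adenylate chains that activate the RNA-cutting enzyme RNase L. Oas1a was highest in upper hair follicle keratinocytes in both imiquimod libraries. In basal keratinocytes Oasl2, a synthetase-like protein, had 54.6 CPM in labelled-null imiquimod cells against 1.38 CPM in labelled-null untreated cells, and 128 CPM in control imiquimod cells against 0.941 CPM in control untreated cells. Oas1a had 44.2 CPM under imiquimod and 0.503 CPM without it in labelled-null basal keratinocytes, and 48.0 CPM under imiquimod and 1.69 CPM without it in control basal keratinocytes. In fibroblasts Oas1a had 7.96 CPM in labelled-null imiquimod cells against 0.164 CPM in labelled-null untreated cells, and 4.97 CPM in control imiquimod cells against 0.0454 CPM in control untreated cells, where 2 and 1 UMIs lay behind the labelled-null and control untreated values. Its level under imiquimod was thus lower in fibroblasts than in basal keratinocytes in both libraries. Oas3 had ratios of 13.7 to 109.8 over 4 classes in the labelled-null pair and 9.40 to 29.1 over 4 in the control pair, and Oas2 9.41 to 36.3 over 4 and 7.03 to 49.4 over 3. Oasl1 was measured in 1 class of the labelled-null pair, fibroblasts, and in none of the control pair.

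Mx1, a GTPase that traps viral nucleoproteins, was sparse, at 4.94 CPM in labelled-null imiquimod fibroblasts against 0.411 CPM untreated, and 5.63 CPM in control imiquimod fibroblasts against 0.182 CPM untreated. Rsad2 encodes viperin, which makes a chain-terminating nucleotide from a product of its neighbour Cmpk2. Rsad2 had 10.8 CPM under imiquimod and 0.904 CPM without it in labelled-null fibroblasts, and 22.7 CPM under imiquimod and 0.999 CPM without it in control fibroblasts, ratios of 11.9 (6.56 to 24.2) and 22.8 (14.7 to 37.0). Cmpk2 differed less, with ratios in fibroblasts of 2.11 in the labelled-null and 4.14 in the control pair, and in basal keratinocytes of 1.19 (0.552 to 2.71) and 2.79 (1.22 to 7.46).

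Ifitm3 held the most UMIs of all members. It had 3884 CPM under imiquimod and 798 CPM without it in labelled-null basal keratinocytes, and 2363 CPM under imiquimod and 872 CPM without it in control basal keratinocytes. In fibroblasts it had 9328 CPM in labelled-null imiquimod cells against 1685 CPM in labelled-null untreated cells, and 5274 CPM in control imiquimod cells against 1675 CPM in control untreated cells. Its basal ratios were 4.87 (4.74 to 5.00) in the labelled-null and 2.71 (2.62 to 2.80) in the control pair. Bst2, or tetherin, which holds budding virus at the cell surface, had 362 CPM under imiquimod and 6.54 CPM without it in labelled-null basal keratinocytes, and 299.7 CPM under imiquimod and 12.4 CPM without it in control basal keratinocytes. In fibroblasts Bst2 had 1405 CPM in labelled-null imiquimod cells against 109.8 CPM in labelled-null untreated cells, and 1031 CPM in control imiquimod cells against 126 CPM in control untreated cells. Both membrane factors were present in untreated fibroblasts at levels above those of untreated basal keratinocytes. Rtp4, a receptor transporter that also binds viral RNA, had ratios of 17.2 to 449 over 8 classes in the labelled-null pair and 9.63 to 124 over 8 in the control pair, the largest of them resting on 1 UMI in labelled-null untreated basal keratinocytes.

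Nucleic acid sensors detect foreign RNA or DNA inside the cell. In basal keratinocytes 6 of 6 measured were at least 2-fold higher with imiquimod in both pairs, and in fibroblasts 5 of 6 in both pairs. Of all genes 9.37% in labelled-null and 4.53% in control basal keratinocytes, and 5.62% in labelled-null and 10.2% in control fibroblasts, were that much higher. Zbp1, which reads Z-form nucleic acid, had 278 CPM under imiquimod and 48.6 CPM without it in labelled-null fibroblasts, and 199.96 CPM under imiquimod and 47.9 CPM without it in control fibroblasts. In basal keratinocytes Zbp1 had 31.2 CPM in labelled-null imiquimod cells against 1.64 CPM in labelled-null untreated cells, and 34.9 CPM in control imiquimod cells against 1.51 CPM in control untreated cells. Eif2ak2, the kinase PKR that halts translation on double-stranded RNA, had 28.7 CPM under imiquimod and 10.3 CPM without it in labelled-null basal keratinocytes, and 32.8 CPM under imiquimod and 7.71 CPM without it in control basal keratinocytes. The RIG-I gene Ddx58 had ratios of 1.49 to 4.24 over 5 classes in the labelled-null pair and 1.70 to 7.34 over 4 in the control pair, and the related sensor Ifih1 1.52 to 11.3 over 6 and 2.35 to 4.91 over 5. Dhx58, a helicase that tunes these sensors, had ratios of 3.35 to 36.7 and 2.78 to 17.8, and the helicase Ddx60 2.34 to 25.9 and 4.69 to 22.4, each for the labelled-null and then the control pair.

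Parp14 and Parp9 attach ADP-ribose to proteins, and Dtx3l is the ubiquitin ligase that pairs with Parp9. In fibroblasts Parp14 had 29.4 CPM with imiquimod and 15.8 CPM untreated in the labelled-null libraries, and 48.4 CPM with imiquimod and 13.1 CPM untreated in the control libraries, with ratios of 1.87 (1.59 to 2.20) and 3.69 (3.19 to 4.28). In basal keratinocytes Parp9 had 26.3 CPM in labelled-null imiquimod cells against 6.16 CPM in labelled-null untreated cells, and 34.5 CPM in control imiquimod cells against 5.46 CPM in control untreated cells. In mural cells Parp9 had 48.6 CPM in labelled-null imiquimod cells against 36.3 CPM in labelled-null untreated cells, and 59.4 CPM in control imiquimod cells against 57.9 CPM in control untreated cells, ratios of 1.34 (0.719 to 2.68) and 1.03 (0.470 to 2.12), so its mural levels with and without imiquimod lay within counting error in both pairs. Dtx3l had ratios of 1.90 to 4.82 over 5 classes in the labelled-null pair and 1.89 to 4.32 over 5 in the control pair.

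Of the other members, Ifi27l2a, a small interferon-induced protein of mitochondria, held the most UMIs after Ifitm3. In basal keratinocytes it had 1259.5 CPM with imiquimod and 18.9 CPM untreated in the labelled-null libraries, and 2034 CPM with imiquimod and 41.8 CPM untreated in the control libraries. In fibroblasts it had 453 CPM in labelled-null imiquimod cells against 3.12 CPM in labelled-null untreated cells, and 409 CPM in control imiquimod cells against 7.63 CPM in control untreated cells. In macrophages or monocytes it had 2026 CPM in labelled-null imiquimod cells against 148 CPM in labelled-null untreated cells, and 2803 CPM in control imiquimod cells against 247 CPM in control untreated cells. Its treated level was thus higher in basal keratinocytes and macrophages than in fibroblasts in both libraries. Lgals3bp, a secreted glycoprotein, had 539 CPM under imiquimod and 17.6 CPM without it in labelled-null fibroblasts, and 331 CPM under imiquimod and 24.8 CPM without it in control fibroblasts, ratios of 30.7 (26.8 to 35.3) and 13.3 (12.2 to 14.6). Apol9a and Apol9b, apolipoprotein L genes, and Ifi44, an interferon-induced cytosolic protein, had few UMIs in untreated keratinocytes. Ifi44 in basal keratinocytes had 11.5 CPM in labelled-null imiquimod cells against 0 CPM in labelled-null untreated cells, and 22.9 CPM in control imiquimod cells against 0.188 CPM in control untreated cells. In basal keratinocytes Apol9b had 36.0 CPM in labelled-null imiquimod cells against 0.503 CPM in labelled-null untreated cells, and 71.9 CPM in control imiquimod cells against 0.188 CPM in control untreated cells, and the control ratio of 382 (68.3 to 15105.5) rests on 1 untreated UMI. Xaf1, a pro-apoptotic factor, had ratios of 4.72 to 24.4 over 8 classes in the labelled-null and 4.55 to 29.6 over 8 in the control pair.

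The remaining members were Ifi35, Isg20, Sp100, Samd9l and Trim30a. Isg20, an exonuclease that degrades RNA, was the 1 member at least 2-fold lower with imiquimod in any class of either pair. In suprabasal keratinocytes it had 1.72 CPM in labelled-null imiquimod cells against 7.42 CPM in labelled-null untreated cells, and 3.92 CPM in control imiquimod cells against 4.95 CPM in control untreated cells, and the labelled-null ratio was 0.232 (0.104 to 0.469), where 19.9% of all genes were at least 2-fold lower, while the control ratio of 0.791 (0.397 to 1.61) spans 1. Ifi35 had ratios of 1.51 to 6.12 in the labelled-null and 2.08 to 4.4 in the control pair, over 8 classes each, and in the same pairs Sp100, a nuclear body protein, had ratios of 1.31 to 13.4 and 1.66 to 11.6, Samd9l 0.670 to 13.5 and 2.20 to 7.50, and Trim30a 2.31 to 17.1 and 1.26 to 11.0.

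**Figure D3:**
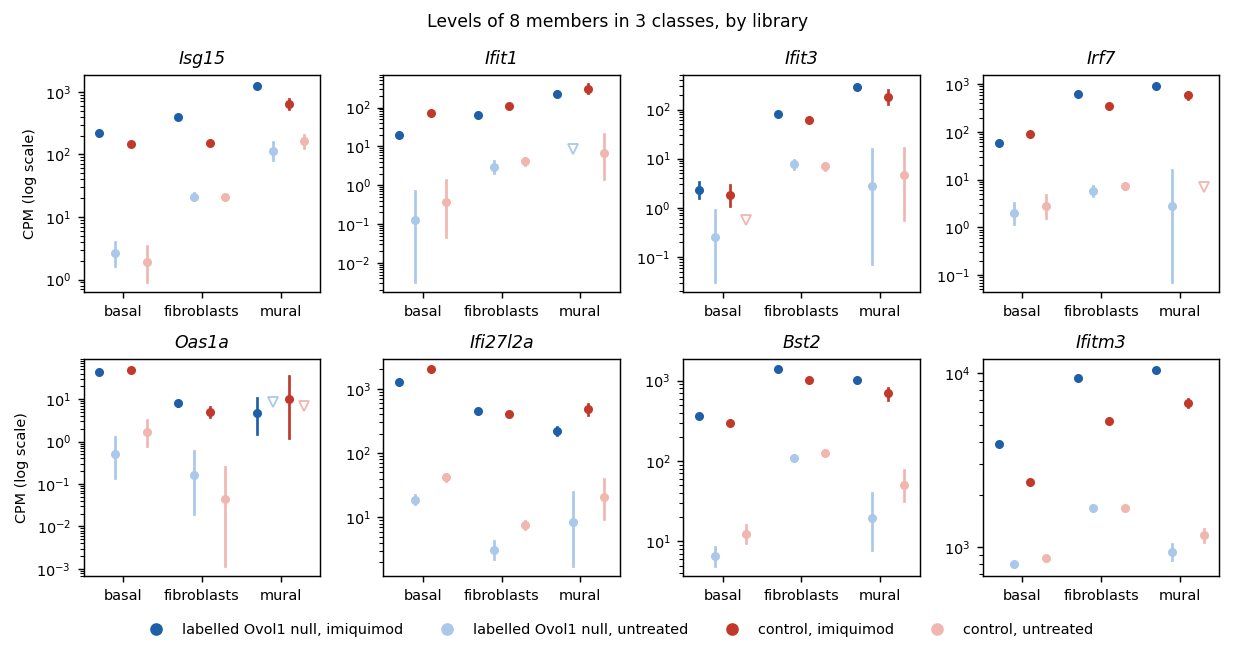
CPM (log scale, vertical axis) of 8 members in basal keratinocytes, fibroblasts and mural cells of the 4 libraries; bars are exact 95% Poisson intervals, and an open triangle marks 0 UMIs, drawn at the level that 3 counts would give. Isg15 and Irf7 are high in imiquimod cells of all 3 classes, Ifit3 mainly in fibroblasts and mural cells, and Oas1a mainly in basal keratinocytes.

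The members with the largest and smallest ratios differed by class. In basal keratinocytes the labelled-null pair was led by Rtp4 449-fold (80.3 to 17742), Ifit1 161-fold (28.6 to 6375) and Oas3 109.8-fold (19.5 to 4359), and the control pair by Apol9b 382-fold (68.3 to 15105.5), Ifit1 192-fold (52.9 to 1587) and Apol9a 156-fold (42.9 to 1288). Smallest there were Cmpk2 1.19-fold (0.552 to 2.71), Herc6 1.32-fold (0.877 to 2.03) and Isg20 1.5-fold (0.865 to 2.70) in the labelled-null pair, and Ifi35 2.60-fold (2.14 to 3.17), Ifitm3 2.71-fold (2.62 to 2.80) and Cmpk2 2.79-fold (1.22 to 7.46) in the control pair. Ifit1 was thus among the 3 largest in both pairs, and Cmpk2 among the 3 smallest. In suprabasal keratinocytes the largest were Oas1a 264-fold (47.0 to 10483), Ifi27l2a 221-fold (151 to 339) and Irf7 187-fold (51.4 to 1550.5) in the labelled-null pair, and Ifi27l2a 294-fold (172 to 552), Rtp4 124-fold (22.0 to 4911) and Irf7 121-fold (21.6 to 4819.8) in the control pair. The smallest suprabasal ratios were Isg20 0.232-fold (0.104 to 0.469), Herc6 1.73-fold (0.883 to 3.51) and Usp18 1.85-fold (1.39 to 2.48) in the labelled-null pair, and Isg20 0.791-fold (0.397 to 1.61), Usp18 1.60-fold (1.19 to 2.17) and Ifi35 2.15-fold (1.65 to 2.83) in the control pair. Ifi27l2a and Irf7 led suprabasal cells in both pairs, and Isg20 and Usp18 were low in both.

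In upper hair follicle keratinocytes the largest were Oasl2 171-fold (30.5 to 6761), Isg15 159-fold (68.2 to 492) and Ifi27l2a 124-fold (84.5 to 189.8) in the labelled-null pair, and Ifi27l2a 171-fold (114 to 269.8), Oasl2 96.7-fold (26.5 to 803) and Isg15 64.0-fold (29.2 to 175) in the control pair. The smallest there were Isg20 1.27-fold (0.478 to 3.93), Herc6 1.75-fold (0.888 to 3.77) and Ddx58 2.06-fold (1.17 to 3.88) in the labelled-null pair, and Dtx3l 1.89-fold (1.04 to 3.60), Ddx58 2.38-fold (1.26 to 4.82) and Ifi35 2.56-fold (1.82 to 3.66) in the control pair. The same 3 members led both pairs in this class. In bulge keratinocytes, where few members reached 20 UMIs, Ifi27l2a 121-fold (72.1 to 222), Irf7 87.7-fold (15.4 to 3503) and Isg15 81.1-fold (14.2 to 3239) led the labelled-null pair, and Oasl2 60.1-fold (10.3 to 2418), Ifi27l2a 37.0-fold (22.5 to 65.2) and Xaf1 20.2-fold (5.19 to 173) the control pair. At the low end of the bulge stood Irf9 2.91-fold (1.75 to 5.01), Parp9 4.58-fold (1.71 to 15.4) and Eif2ak2 4.61-fold (1.88 to 13.6) in the labelled-null pair, and Ifi35 2.26-fold (1.32 to 3.96), Eif2ak2 2.64-fold (1.03 to 7.59) and Ifitm3 3.60-fold (3.09 to 4.21) in the control pair.

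In fibroblasts the largest ratios were Ifi27l2a 145-fold (106 to 205), Irf7 109.7-fold (86.8 to 141) and Ifi44 74.0-fold (13.1 to 2940.2) in the labelled-null pair, and Oas1a 109-fold (18.8 to 4402), Ifi44 86.2-fold (14.6 to 3488) and Ifi27l2a 53.6-fold (45.9 to 62.9) in the control pair. The smallest fibroblast ratios were Usp18 1.46-fold (1.30 to 1.64), Ddx58 1.49-fold (1.26 to 1.77) and Ifi35 1.51-fold (1.39 to 1.64) in the labelled-null pair, and Isg20 1.47-fold (1.27 to 1.69), Ddx58 1.70-fold (1.42 to 2.03) and Sp100 1.90-fold (1.66 to 2.18) in the control pair. Mural cells were led by Irf7 332-fold (59.5 to 13128), Lgals3bp 128-fold (22.8 to 5063) and Ifit3 104-fold (18.5 to 4125) in the labelled-null pair, and by Irf7 at least 83.5-fold, Ifit1 44.2-fold (14.4 to 220.3) and Ifit3 39.6-fold (10.2 to 339) in the control pair. At the low mural end were Cmpk2 1.23-fold (0.483 to 3.70), Parp9 1.34-fold (0.719 to 2.68) and Samd9l 1.49-fold (0.711 to 3.49) in the labelled-null pair, and Parp9 1.03-fold (0.470 to 2.12), Isg15 3.86-fold (2.86 to 5.23) and Samd9l 4.28-fold (1.62 to 12.5) in the control pair.

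Macrophages or monocytes were led by Irf7 93.5-fold (31.5 to 458), Oasl2 44.0-fold (11.6 to 372) and Rtp4 24.7-fold (11.6 to 62.8) in the labelled-null pair, and by Irf7 38.9-fold (22.1 to 74.9), Oasl2 23.2-fold (9.80 to 66.9) and Isg15 16.4-fold (11.0 to 25.2) in the control pair. Their smallest ratios were Samd9l 1.44-fold (0.728 to 2.84), Ifih1 1.52-fold (0.567 to 4.06) and Sp100 1.65-fold (1.01 to 2.68) in the labelled-null pair, and Trim30a 1.26-fold (0.675 to 2.23), Stat2 1.51-fold (0.568 to 3.65) and Sp100 1.66-fold (1.09 to 2.47) in the control pair. Irf7 and Oasl2 led macrophages of both pairs. T or NK cells were led by Ifi27l2a 39.3-fold (25.4 to 64.6), Rtp4 18.8-fold (3.12 to 765) and Isg15 17.1-fold (7.17 to 53.6) in the labelled-null pair, and by Ifit1 50.4-fold (12.5 to 439.7), Rtp4 27.3-fold (9.47 to 108) and Isg15 19.8-fold (11.0 to 38.2) in the control pair. Their smallest were Samd9l 0.670-fold (0.387 to 1.16), Parp9 1.25-fold (0.472 to 3.66) and Herc6 1.25-fold (0.505 to 3.38) in the labelled-null pair, and Apol9b 0.525-fold (0.101 to 1.73), Apol9a 0.884-fold (0.219 to 2.66) and Sp100 1.89-fold (1.34 to 2.63) in the control pair. Rtp4 and Isg15 were among the 3 largest in T or NK cells of both pairs, and the control ratios of Apol9b and Apol9a there had intervals that span 1.

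Set side by side, the imiquimod ratios of the labelled-null and control pairs were of like size in fibroblasts. There 32 of 39 members measured in both pairs had log2 ratios within 1 of each other, 18 had the larger ratio in the labelled-null pair, and 32 were at least 2-fold higher in both. In basal keratinocytes 17 of 36 lay within 1, 12 had the larger ratio in the labelled-null pair and 32 were at least 2-fold higher in both. In suprabasal keratinocytes 22 of 32 had the larger ratio in the labelled-null pair. The difference between the pairs was not tested, since each rests on 1 library per condition.

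Members were not evenly spread over cell types, and all 40 spanned at least 2-fold between their highest and lowest class in each imiquimod library. Under imiquimod the highest class was mural cells for 17 members in the labelled-null library and 15 in the control library. Macrophages or monocytes were highest for 13 and 6 members in labelled-null and control imiquimod cells, T or NK cells for 5 and 9, fibroblasts for 3 and 4, upper hair follicle keratinocytes for 2 and 4, and basal keratinocytes for 0 and 2. For 25 of 40 members the same class was highest in both imiquimod libraries. Classes of a library share its depth and its free RNA, and cell numbers in mural cells (232 and 65 in labelled-null and control imiquimod skin) and macrophages or monocytes (65 and 82) were small, so the leading class is a description.

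Isg15 was highest in mural cells in both imiquimod libraries, at 1243 CPM in labelled-null and 634 CPM in control cells, and lowest in bulge keratinocytes, at 85.1 and 58.1 CPM. Ifit3 differed 153-fold between mural cells and suprabasal keratinocytes of labelled-null imiquimod skin, and 99.7-fold between mural cells and basal keratinocytes of control imiquimod skin. Ifi27l2a had another order. It was highest in macrophages or monocytes, at 2026 CPM in labelled-null and 2803 CPM in control cells, and lowest in mural cells of the labelled-null library (220.4 CPM) and in fibroblasts of the control library (409 CPM). Oas1a and Eif2ak2 were highest in upper hair follicle keratinocytes of both imiquimod libraries, Oas1a with 57.5 and 54.8 CPM in labelled-null and control cells. Apol9a and Apol9b were highest in T or NK cells of the labelled-null library and in basal keratinocytes of the control library.

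**Figure D4:**
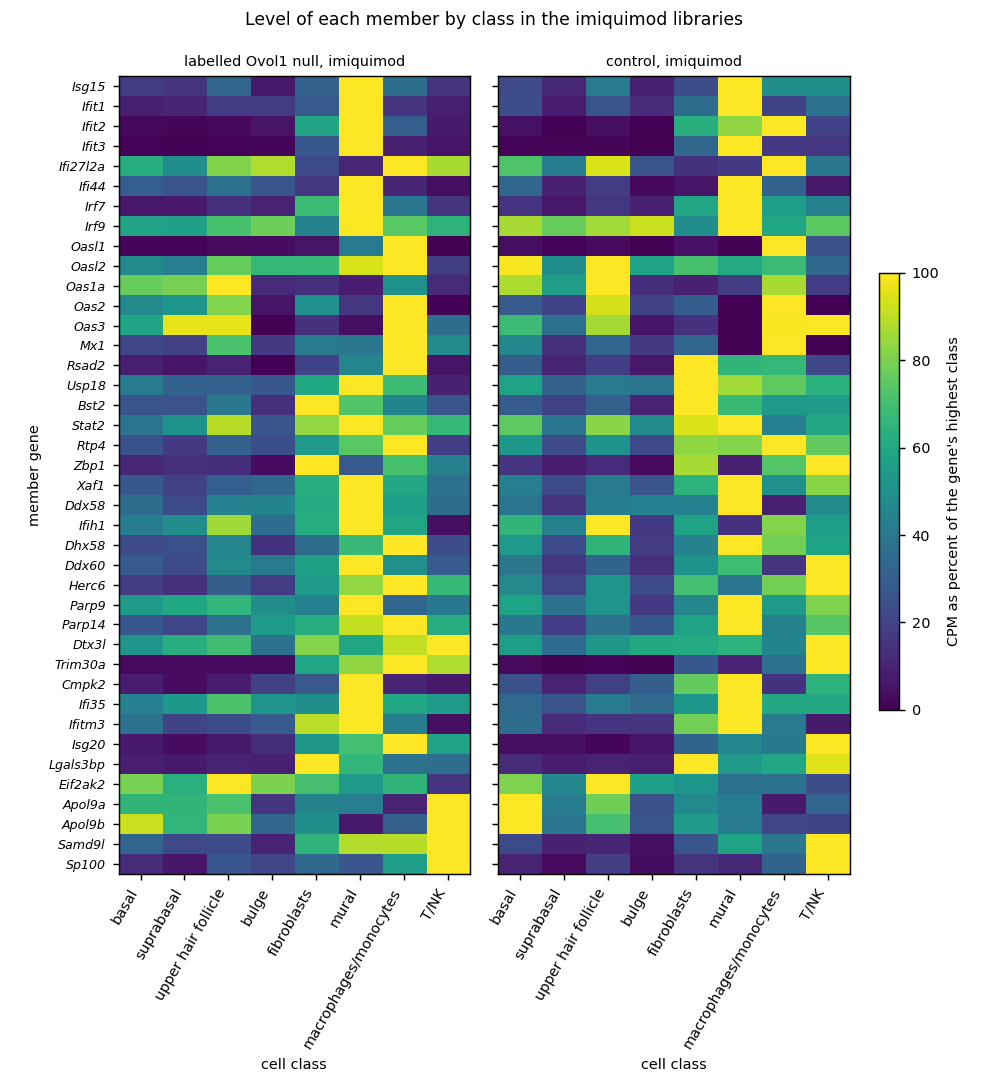
Level of each of 40 members (rows) in 8 classes (columns) of the imiquimod libraries labelled Ovol1 null (left) and control (right). Colour gives CPM as a percent of the gene's highest class in that library, so each row reaches 100 in 1 class; Isg15, Ifit1, Ifit3 and Irf7 reach it in mural cells, Ifi27l2a in macrophages or monocytes, and Oas1a and Eif2ak2 in upper hair follicle keratinocytes, in both libraries.

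In most classes many cells, not a few, had the higher member level. To compare cells of unequal depth, each was thinned to 1000 UMIs. Among fibroblasts, 86.5% of labelled-null imiquimod cells had more member UMIs than the 99th percentile of labelled-null untreated fibroblasts, and 47.3% of control imiquimod cells passed the 99th percentile of control untreated ones. The same share was 62.3% in labelled-null and 65.3% in control basal keratinocytes, 86.8% and 77.4% in labelled-null and control upper hair follicle keratinocytes, and 96.6% and 75.4% in labelled-null and control mural cells. It was smallest in T or NK cells, at 44.8% in labelled-null and 13.2% in control cells. Few untreated cells reached the median of treated ones, 4 of 1954 labelled-null and 38 of 3271 control untreated fibroblasts, and 9 of 1356 labelled-null and 9 of 1006 control untreated basal keratinocytes.

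Spread between cells, as the coefficient of variation of the summed level, was 31.9% in labelled-null imiquimod and 60.4% in labelled-null untreated fibroblasts, and 44.5% in control imiquimod and 55.1% in control untreated fibroblasts. Untreated cells hold fewer member UMIs, and counting alone then gives a larger coefficient. The variance of thinned member counts over their mean went the other way. In fibroblasts it was 2.26 in labelled-null imiquimod and 1.58 in labelled-null untreated cells, and 2.38 and 1.51 in control imiquimod and untreated cells. In basal keratinocytes it was 1.79 and 1.46 in labelled-null imiquimod and untreated cells, and 2.25 and 1.37 in control imiquimod and untreated cells. Whether treated cells vary more or less at an equal member level was not tested. Irf7 transcripts were found in 91.6% of labelled-null imiquimod and 3.38% of labelled-null untreated fibroblasts, and in 57.8% and 4.31% of control imiquimod and untreated ones. After thinning these shares were 44.1% and 0.256% in labelled-null imiquimod and untreated cells, and 26.0% and 0.673% in control imiquimod and untreated cells. Treated fibroblasts therefore held Irf7 more often at equal depth too. Ifi27l2a was found after thinning in 64.0% and 1.55% of labelled-null imiquimod and untreated basal keratinocytes, and in 76.4% and 2.49% of control imiquimod and untreated ones, and unthinned in 96.3%, 7.30%, 96.3% and 11.1% of the same cells.

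Without imiquimod, the labelled-null and control libraries had similar summed levels in most classes when Ifitm3 was included. The labelled-null over control ratio was 0.901 in basal, 0.922 in suprabasal, 0.983 in upper hair follicle and 1.12 in bulge keratinocytes, 0.993 in fibroblasts, 0.789 in mural cells, 0.625 in macrophages or monocytes and 0.859 in T or NK cells. Without Ifitm3 the ratio lay below 1 in every class. It was then 0.838 in basal, 0.925 in suprabasal, 0.839 in upper hair follicle and 0.972 in bulge keratinocytes. Fibroblasts had 0.953, mural cells 0.754, macrophages or monocytes 0.740 and T or NK cells 0.739. Of these, the intervals for suprabasal, upper hair follicle and bulge keratinocytes span 1. Of 120 measured pairs of member and class, 3 were at least 2-fold higher in labelled-null cells, against 3.29% of all gene and class pairs, and 8 were at least 2-fold lower, against 2.54%. The count of higher members was near the background and that of lower members above it, with 4 of the 8 in T or NK cells, against 5.01% of all genes there. Ifi27l2a was the repeated case. It had 44.8 CPM in labelled-null and 263 CPM in control untreated T or NK cells, a ratio of 0.171 (0.102 to 0.270), 18.9 and 41.8 CPM in labelled-null and control basal keratinocytes, a ratio of 0.452 (0.365 to 0.558), and 3.12 and 7.63 CPM in labelled-null and control fibroblasts, a ratio of 0.409 (0.280 to 0.585).

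The other extremes without imiquimod rested on few members. In basal keratinocytes the largest ratios were Isg20 4.23-fold (1.25 to 22.3), Ddx58 1.53-fold (0.792 to 3.10) and Stat2 1.48-fold (0.841 to 2.69), and the smallest Ifi27l2a 0.452-fold (0.365 to 0.558), Bst2 0.527-fold (0.359 to 0.769) and Samd9l 0.633-fold (0.313 to 1.27). In fibroblasts the largest were Ifi35 1.32-fold (1.2 to 1.45), Oasl2 1.28-fold (0.963 to 1.69) and Herc6 1.24-fold (0.959 to 1.59), and the smallest Ifi27l2a 0.409-fold (0.280 to 0.585), Ifit2 0.633-fold (0.396 to 0.985) and Sp100 0.645-fold (0.537 to 0.772). In T or NK cells the largest were Ifitm3 2.99-fold (2.01 to 4.47), Samd9l 1.83-fold (1.05 to 3.17) and Lgals3bp 1.82-fold (1.22 to 2.71), and the smallest Ifi27l2a 0.171-fold (0.102 to 0.270), Zbp1 0.245-fold (0.0630 to 0.691) and Isg20 0.346-fold (0.0650 to 1.2). In macrophages or monocytes the largest were Isg15 1.36-fold (0.733 to 2.48), Samd9l 1.2-fold (0.655 to 2.15) and Stat2 1.13-fold (0.468 to 2.59), and the smallest Ifitm3 0.498-fold (0.435 to 0.570), Zbp1 0.510-fold (0.238 to 1.0) and Isg20 0.510-fold (0.124 to 1.58). Ifitm3 was thus higher in labelled-null T or NK cells and lower in labelled-null macrophages or monocytes, each against control cells. Genes of other cell types differed in these cells too, with Krt14 at 822 CPM in labelled-null and 127 CPM in control untreated T or NK cells, and Col1a1 at 3799.7 CPM in labelled-null and 9639 CPM in control untreated macrophages or monocytes. Col1a1 had 668 and 584 CPM in labelled-null and control T or NK cells, and Krt14 665 and 371 CPM in labelled-null and control macrophages or monocytes, and the part of these in the Ifitm3 values was not tested. In mural cells Bst2 had 19.5 CPM in labelled-null and 50.9 CPM in control untreated cells, a ratio of 0.384 (0.138 to 0.930). In bulge keratinocytes Irf9 had 22.0 and 10.1 CPM in labelled-null and control cells, a ratio of 2.19 (0.933 to 5.72).

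Under imiquimod, summed levels were higher in the labelled-null than in the control library in 7 of 8 classes, the exception being T or NK cells. The labelled-null over control ratio was 2.25-fold (2.14 to 2.38) in bulge keratinocytes, 1.56-fold (1.55 to 1.57) in fibroblasts, 1.52-fold (1.49 to 1.55) in suprabasal keratinocytes, 1.44-fold (1.38 to 1.51) in mural cells, 1.16-fold (1.11 to 1.21) in macrophages or monocytes, 1.14-fold (1.11 to 1.16) in upper hair follicle keratinocytes, 1.06-fold (1.05 to 1.07) in basal keratinocytes and 0.808-fold (0.752 to 0.868) in T or NK cells. The direction in 3 of them rested on Ifitm3. Without it the ratio was 0.700 in basal keratinocytes (26.5 member UMIs per 10000 in labelled-null and 37.8 in control cells), 0.836 in upper hair follicle keratinocytes and 0.935 in macrophages or monocytes, while it was 1.27 in fibroblasts, 1.28 in mural cells and 1.79 in bulge keratinocytes. In suprabasal keratinocytes the ratio without Ifitm3 was 1.09 (23.1 and 21.3 in labelled-null and control cells), against 1.52 with it. In T or NK cells it was 0.806 without Ifitm3. Labelled-null basal keratinocytes of this library were 14367 UMIs deep in the median, against 5208 in control imiquimod skin, and lay in another joint cluster, and the part of either in these ratios was not tested.

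Of 257 measured pairs of member and class, 21 were at least 2-fold higher in labelled-null imiquimod cells, against 8.78% of all gene and class pairs, and 27 were at least 2-fold lower, against 11.4%. Both counts lay near the background, so the members as a list did not differ between these libraries more often than genes at large. Scaling by trimmed means (TMM) instead of the class total gave 28 higher and 17 lower, and in fibroblasts 4 higher and 0 lower in place of 1 and 3. That scaling moved all log2 ratios of this comparison, of members and other genes alike, by 0.25 in fibroblasts and 0.19 in mural cells. The share of all genes past 2-fold with TMM scaling is not given here, so the TMM counts have no background beside them. In basal keratinocytes 1 member was higher and 10 were lower of 38 measured, against 11.5% and 14.4% of all genes, and in T or NK cells 2 were higher and 8 lower of 24, against 9.6% and 6.75%. With the class total, the share of lower members in these 2 classes lay above the background. With TMM scaling the lower members numbered 9 in basal keratinocytes and 5 in T or NK cells, again without a share of all genes. In suprabasal keratinocytes 5 were higher and 1 lower of 36, against 8.56% and 14.0%.

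Several members kept 1 direction over most or all measured classes. Isg15 was higher in labelled-null imiquimod cells in 7 of 8 classes, with a median ratio over classes of 1.53 and a range of 0.607 to 2.71. In fibroblasts it had 391 CPM in labelled-null and 151 CPM in control cells, a ratio of 2.60 (2.46 to 2.74). Ifitm3 had a median ratio of 1.71 (0.825 to 3.01), Irf7 1.48 (0.562 to 1.84) and Lgals3bp 1.52 (0.611 to 2.0), here with the range over 8 classes in brackets. The classes where Irf7 was lower in labelled-null imiquimod cells included basal keratinocytes. On the lower side, Irf9 was below 1 in 8 of 8 classes, with a median of 0.646 (0.504 to 0.942), Usp18 in all 7 measured classes, with 0.597 (0.481 to 0.921), Ddx60 in all 5, with 0.644 (0.321 to 0.685), and Samd9l in all 7, with 0.787 (0.351 to 0.856). Classes of 1 library share its depth and preparation, so these repeats are not independent.

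Isg15 and Ifit1 went opposite ways in the same cells. In basal keratinocytes Ifit1 had 20.2 CPM in labelled-null and 72.2 CPM in control imiquimod cells, a ratio of 0.280 (0.242 to 0.323), where Isg15 had 217 and 146 CPM, a ratio of 1.48 (1.39 to 1.58). In fibroblasts the Ifit1 ratio was 0.603 (0.559 to 0.651). The basal extremes were Oas2 2.02-fold (1.39 to 2.98), Ifitm3 1.64-fold (1.62 to 1.67) and Isg15 1.48-fold (1.39 to 1.58) at the high end and Ifit1 0.280-fold (0.242 to 0.323), Mx1 0.317-fold (0.205 to 0.482) and Ddx60 0.321-fold (0.241 to 0.426) at the low end. In suprabasal keratinocytes they were Oas2 3.07-fold (1.75 to 5.65), Isg15 2.71-fold (2.42 to 3.05) and Ifitm3 2.69-fold (2.60 to 2.79) at the high end and Isg20 0.439-fold (0.186 to 0.967), Herc6 0.558-fold (0.331 to 0.925) and Irf9 0.561-fold (0.482 to 0.653) at the low end. In upper hair follicle keratinocytes they were Isg20 2.75-fold (0.794 to 14.6), Ifitm3 2.5-fold (2.39 to 2.62) and Ifi35 1.78-fold (1.5 to 2.14) at the high end and Herc6 0.496-fold (0.317 to 0.778), Ifit1 0.525-fold (0.423 to 0.651) and Parp14 0.557-fold (0.396 to 0.784) at the low end. Ifitm3 was among the 3 highest in each of these keratinocyte classes.

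In fibroblasts the high end was Isg15 2.60-fold (2.46 to 2.74), Oas2 1.99-fold (1.45 to 2.79) and Irf7 1.84-fold (1.77 to 1.91), and the low end Rsad2 0.474-fold (0.397 to 0.567), Usp18 0.481-fold (0.442 to 0.523) and Apol9b 0.486-fold (0.426 to 0.555). In mural cells the high end was Ifih1 6.79-fold (1.14 to 276), Trim30a 4.81-fold (1.26 to 40.8) and Zbp1 3.91-fold (1.47 to 14.7), and the low end Ifi27l2a 0.459-fold (0.361 to 0.587), Parp14 0.510-fold (0.287 to 0.949) and Samd9l 0.539-fold (0.287 to 1.07). In macrophages or monocytes Rsad2 3.51-fold (1.49 to 9.56), Dhx58 2.13-fold (0.934 to 5.27) and Ifitm3 1.63-fold (1.52 to 1.74) were highest, and Parp9 0.486-fold (0.178 to 1.22), Ifit1 0.566-fold (0.296 to 1.05) and Oas1a 0.621-fold (0.300 to 1.25) lowest. In T or NK cells Apol9b 2.73-fold (0.842 to 14.0), Apol9a 2.05-fold (0.716 to 8.02) and Ifi27l2a 1.58-fold (1.37 to 1.82) were highest, and Ifit1 0.170-fold (0.0815 to 0.343), Isg20 0.321-fold (0.167 to 0.621) and Rtp4 0.337-fold (0.193 to 0.593) lowest. Bulge keratinocytes ran from Sp100 3.22-fold (1.31 to 9.5), Ifitm3 3.01-fold (2.77 to 3.27) and Ifi27l2a 2.40-fold (2.17 to 2.65) at the high end to Dtx3l 0.388-fold (0.151 to 0.932), Stat2 0.477-fold (0.180 to 1.21) and Usp18 0.557-fold (0.298 to 1.03) at the low end. Rsad2 was therefore low in labelled-null fibroblasts and high in labelled-null macrophages or monocytes, both under imiquimod and against control cells.

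**Figure D5:**
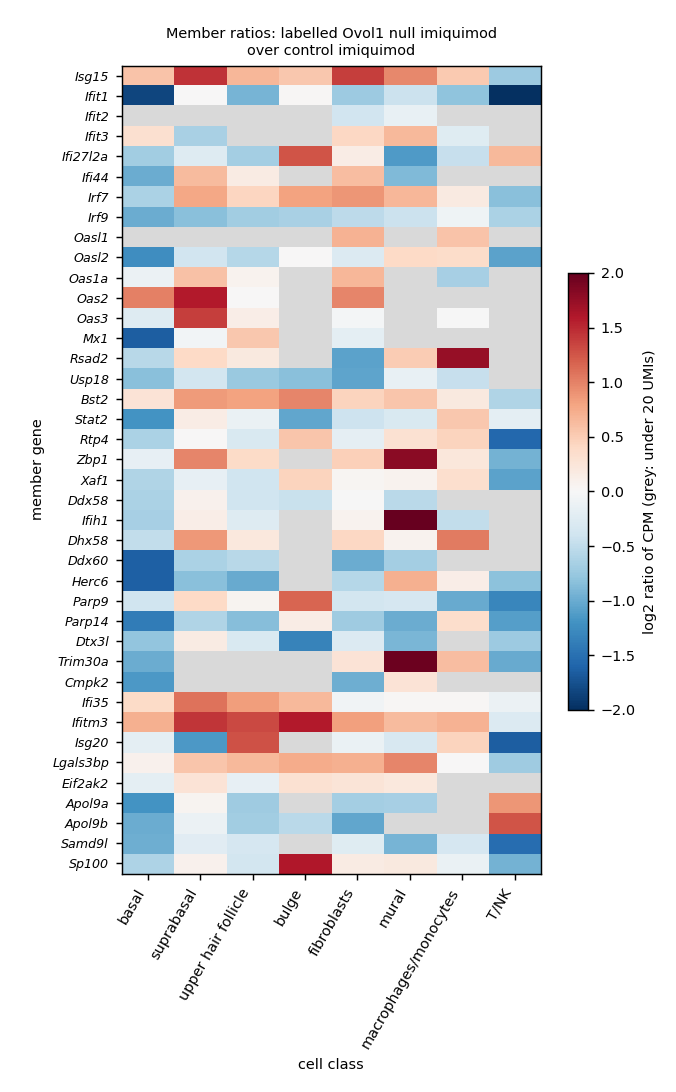
Log2 ratio of CPM, labelled-null imiquimod over control imiquimod, for 40 members (rows) in 8 classes (columns), with 0.5 UMI added to each count; grey marks under 20 UMIs and colour stops at 2 either way. Isg15, Irf7, Lgals3bp and Ifitm3 are on the higher side in most classes, and Irf9, Usp18, Ddx60 and Samd9l on the lower side in every measured one.

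Ligand transcripts were rare. Of 20 type I and type III interferon genes searched, all Ifna genes had 0 UMIs in every library. Ifnb1, interferon beta, had 0 UMIs in labelled-null imiquimod and 11 in labelled-null untreated cells, and 0 in control imiquimod and 8 in control untreated cells, from 3 and 4 cells of the untreated libraries, and 18 of its 19 UMIs lay in macrophages or monocytes. Ifnk, the interferon kappa of keratinocytes, had 0 UMIs in labelled-null imiquimod, 31 in labelled-null untreated, 20 in control imiquimod and 26 in control untreated cells. Siglech, a marker of plasmacytoid dendritic cells, had 0 UMIs in labelled-null imiquimod and 3 in labelled-null untreated cells, and 0 in control imiquimod and 6 in control untreated cells, and Tlr7 had 14, 3, 6 and 16 UMIs in the same libraries. Other markers searched for these cells had UMIs under imiquimod. Ccr9 had 50 UMIs in labelled-null and 44 in control imiquimod cells, Runx2 127 and 57, and Spib 8 and 1. Other cell classes held such markers too, with 99 of 181 Ccr9 UMIs in fibroblasts. Whether plasmacytoid dendritic cells were present was not tested. At this depth Ifnb1 was not detectable in either imiquimod library, where a count of 0 allows up to 3 UMIs.

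Most receptor chains differed by less than 2-fold. Ifnar1 in basal keratinocytes had 9.93 CPM against 16 CPM in labelled-null imiquimod and untreated cells, a ratio of 0.621 (0.484 to 0.799), and 16.5 CPM against 16.6 CPM in control imiquimod and untreated cells, a ratio of 0.998 (0.763 to 1.31). Of 6 receptor chains, 0 were at least 2-fold higher and 2 lower in basal keratinocytes of the labelled-null pair (Ifngr1 at 0.436 and Ifnlr1 at 0.342), and 1 was higher and 0 lower in the control pair (Il10rb at 2.07). Of all genes 18.1% were at least 2-fold lower in labelled-null and 5.84% in control basal keratinocytes, and 16.8% and 10.5% in labelled-null and control fibroblasts. The shares at least 2-fold higher were 9.37%, 4.53%, 5.62% and 10.2% in the same order. In control fibroblasts Ifngr1 (2.38) and Il10rb (2.15) were at least 2-fold higher with imiquimod, and in labelled-null fibroblasts 0 of 5 measured chains were.

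Among kinases and factors of the pathway, Tyk2 was 0.481 of its untreated level in labelled-null basal keratinocytes, and Irf5 and Irf8 were 0.419 and 0.289 in labelled-null fibroblasts, where Irf8 is mainly a leukocyte gene. Irf2 was 2.39-fold in control fibroblasts. Of the TLR7 pathway, 0 of 8 measured genes passed 2-fold in basal keratinocytes of either pair, and Traf3, at 0.496 in control fibroblasts, was the 1 that did in fibroblasts. Among adaptors of cytosolic sensing, Trim25, which activates RIG-I, was 2.12-fold in labelled-null basal keratinocytes and 2.73-fold in control fibroblasts, and Tmem173, the DNA-sensing adaptor STING, was 3.90-fold in labelled-null fibroblasts. Of 6 genes that brake the signal, 3 were at least 2-fold lower in labelled-null and 1 in control basal keratinocytes, 0 in labelled-null and 1 in control fibroblasts, and 0 were higher in any of these cells. Over all genes, the shares at least 2-fold lower were 18.1% and 5.84% in labelled-null and control basal keratinocytes, and 16.8% and 10.5% in fibroblasts. The shares at least 2-fold higher were 9.37%, 4.53%, 5.62% and 10.2% in the same order. Both sets of shares also belong beside the TLR7 counts above. Cish was 0.409 of its untreated level in labelled-null and 0.302 in control basal keratinocytes, Socs3 and Pias1 were 0.299 and 0.448 in labelled-null basal keratinocytes, and Socs1 was 0.399 in control fibroblasts.

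Most measured genes usually assigned to interferon gamma were also higher with imiquimod. Of 22 listed, 13 of 16 measured were at least 2-fold higher with imiquimod in labelled-null basal keratinocytes, against 9.37% of all genes, and 12 of 16 in control basal keratinocytes, against 4.53%. In fibroblasts 13 of 19 were higher in the labelled-null and 17 of 20 in the control pair, against 5.62% and 10.2%. Iigp1, a GTPase that attacks parasite vacuoles, had 194 CPM against 22.3 CPM in labelled-null imiquimod and untreated fibroblasts and 267 CPM against 16.6 CPM in control imiquimod and untreated ones. Gbp2, a guanylate-binding protein, had 9.33 CPM against 3.65 CPM in labelled-null imiquimod and untreated basal keratinocytes, a ratio of 2.56, and 39.8 CPM against 4.33 CPM in control ones, a ratio of 9.19. These genes respond to both kinds of interferon, and the 2 lists cannot separate them. Ifng itself had 10 UMIs in labelled-null imiquimod and 4 in labelled-null untreated cells, and 15 in control imiquimod and 83 in control untreated cells, 100 of 112 in T or NK cells.

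Among these genes past 2-fold in labelled-null basal keratinocytes, Gbp3 at 47.5 was the highest and Psmb8 at 2.07 the lowest, with Cd274, Cxcl9, Gbp2, Gbp4, Gbp7, Igtp, Iigp1, Irgm1, Irgm2, Psmb10 and Psmb9 between them. In control basal keratinocytes Iigp1 at 52.3 was the highest and Psmb8 at 2.01 the lowest, with Cd274, Cxcl9, Gbp2, Gbp3, Gbp6, Gbp7, Igtp, Irgm1, Irgm2 and Tap1 between them. In labelled-null fibroblasts Gbp3 at 10.8 was the highest and Gbp7 at 2.1 the lowest, with Cd274, Cxcl9, Gbp5, Gbp6, Igtp, Iigp1, Irgm1, Irgm2, Psmb8, Tap1 and Tgtp1 between them. In control fibroblasts Tgtp1 at 77.8 was the highest and Psmb9 at 2.11 the lowest, with Cd274, Cxcl9, Gbp2, Gbp3, Gbp4, Gbp5, Gbp6, Gbp7, Igtp, Iigp1, Irgm1, Irgm2, Nlrc5, Tap1 and Tgtp2 between them. The ratios of Cxcl9 and Gbp6 in control basal keratinocytes and of Tgtp1 in labelled-null fibroblasts are lower bounds. They include class I antigen-processing genes (Psmb8, Psmb9, Tap1) and the T cell attractant Cxcl9. Between the imiquimod libraries, 2 were at least 2-fold higher and 6 lower of 17 in labelled-null over control basal keratinocytes, against 11.5% and 14.4% of all genes. Gbp2 there had 9.33 CPM in labelled-null and 39.8 CPM in control cells, a ratio of 0.235 (0.190 to 0.288). In fibroblasts 0 were higher and 6 lower of 20, where 5.21% of all genes were higher and 13.9% lower.

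Free RNA in the droplets sets a floor under these levels. Krt14, a keratinocyte gene, had a UMI in 80.6% of labelled-null imiquimod and 77.2% of labelled-null untreated fibroblasts, and in 76.6% of control imiquimod and 26.8% of control untreated ones. Its CPM in fibroblasts was 1.12% and 3.16% of that in basal keratinocytes of the labelled-null imiquimod and untreated libraries, and 4.0% and 0.801% in the control imiquimod and untreated libraries. Ifi27l2a in fibroblasts stood at 36.0%, 16.5%, 20.1% and 18.3% of its basal level in the same 4 libraries, above that floor. In the other direction the collagen gene Col1a1 in basal keratinocytes was 1.26%, 1.66%, 1.67% and 1.58% of its fibroblast level. Ifitm3 in basal keratinocytes was 41.6%, 47.3%, 44.8% and 52.1% of its fibroblast level, far above it. Ifit3 stood nearer to it. Its basal level was 2.89% of the fibroblast level in labelled-null imiquimod and 3.04% in control imiquimod skin, above the 1.26% and 1.67% of Col1a1 in the same libraries but far below the share of Ifitm3, and the part of free RNA in it was not tested. These shares cover basal keratinocytes and fibroblasts only. Under imiquimod, Col1a1 had 1953 CPM in labelled-null and 967 CPM in control macrophages or monocytes, against 7960 and 6712 CPM in fibroblasts. In T or NK cells it had 179 and 566 CPM, and in mural cells 746 and 223 CPM, in labelled-null and control imiquimod skin. The part of free RNA in the member levels of these classes was not tested.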

How the data were processed

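Per the labels' protocols and the submitters' processing notes, the deposited UMI counts came from 10x Chromium 3′ v2 libraries processed with Cell Ranger 2.1.0 against mm10 and combined into 1 table of raw counts per gene and cell. The annotation release, and whether depth was equalised when libraries were combined, are not given in the sources used here. The barcode suffix gave each cell's library. Barcodes under 200 genes or over 10% mitochondrial UMIs were dropped, as were Scrublet calls (expected rate 0.05, per library). Cells were clustered with scanpy 1.11.5 (2000 variable genes without the members, 30 components, 15 neighbours, Leiden resolution 1, leidenalg 0.10.2). A cluster was named from a list where at least 3 of its markers, and at least 50% of the list, stood out. A marker stood out where it lay 2-fold above the median cluster and was found in at least 10% of cells. Such a cluster still stayed unnamed where another list held more of its 10 top genes. It also did where it was shallow and none of those genes were its list's markers. Cells of unnamed clusters were named from a clustering of their own library. These naming rules were set after seeing the data, and the members and gene lists were chosen with earlier results of these data known.

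For each class of a library the UMIs of its cells were added up and expressed as counts per 1e6 (CPM). Ratios carry exact conditional binomial 95% intervals, and levels exact Poisson intervals (scipy 1.17.1), which cover counting error only. Groups of 1 library allow no test between them. Named with values were the 2 members of each role with the most UMIs and, per comparison and class, the 3 highest and 3 lowest ratios; the rest are given by counts and ranges, except for single members named after their values were seen. Alternatives covered the genes clustered, clustering per library, doublets, cell filters, TMM scaling (edgeR 4.0.16, used only for scaling factors), cell weights, the UMI minimum, the fold and thinning. The counting steps were tested on simulated data.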

Additional observations from a re-analysis of the deposited data

How the results depend on the processing

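Keeping the members among the clustered genes, or keeping called doublets, left all 16 summary results close to their reported values. Over the compared classes the summed level per 10000 UMIs was 101.5 in labelled-null imiquimod, 12.6 in labelled-null untreated, 65.0 in control imiquimod and 16.7 in control untreated cells. It was 12.9 in labelled-null untreated and 64.6 in control imiquimod cells with each library clustered on its own. That left 6 classes, without bulge keratinocytes and macrophages or monocytes. With at least 500 genes and at most 5% mitochondrial UMIs it was 96.7 in labelled-null imiquimod, 12.8 in labelled-null untreated and 16.9 in control untreated cells, over 7 classes without mural cells. With cells of at least 3100 UMIs it was 101.1 in labelled-null imiquimod, 64.2 in control imiquimod and 17.1 in control untreated cells, over 6 classes without mural cells and T or NK cells. These levels thus cover fewer classes than the reported ones. Thinned to 1000 UMIs, which weighs cells equally, the 4 levels were 114.2 in labelled-null imiquimod, 12.3 in labelled-null untreated, 69.0 in control imiquimod and 15.8 in control untreated cells, and without Ifitm3, chosen after seeing the data, they were 38.6, 3.04, 34.99 and 4.36 in the same order.

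For imiquimod against untreated cells of the labelled-null pair, the 209 higher and 1 lower became 135 higher and 0 lower with at least 100 UMIs, and 2 were lower with at least 1 UMI. For the control pair, 115 were higher with at least 100 UMIs, and 1 was lower with TMM scaling, with a mean over cells, or at a ratio of 1.5. For labelled-null against control untreated cells, the 3 higher and 8 lower became 1 and 5 with cells of at least 3100 UMIs, 20 and 30 with at least 1 UMI, 1 and 4 with at least 100 UMIs, and 6 and 24 at a ratio of 1.5. For labelled-null against control imiquimod cells, the 27 lower became 17 with cells of at least 3100 UMIs, 17 with TMM scaling and 43 with at least 1 UMI, the counts were 10 higher and 12 lower with at least 100 UMIs, and 52 higher and 76 lower at a ratio of 1.5. The UMI minimum and the ratio change how many pairs can be counted. The share of all genes can change with each setting too and is not given here. These counts therefore show only how the member counts move, not how they stand against genes at large. Cells of at least 3100 UMIs left 6 classes to compare, over which the reported counts were 2 higher and 3 lower in untreated and 18 lower in imiquimod cells. For the TMM, mean over cells and clustering values the cause was not tested. TMM moved all log2 ratios of imiquimod against untreated cells by 0.20 in labelled-null and 0.20 in control basal keratinocytes, and by 0.23 in labelled-null and -0.04 in control fibroblasts. No paired analysis was possible because each group holds 1 library, and for the same reason no replicate could be left out.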

Other observations

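Some classes had at least 50 cells in only some of the libraries and entered no comparison. Endothelial cells of labelled-null imiquimod skin had high member levels. Lymphatic endothelial cells had 242 member UMIs per 10000 in labelled-null imiquimod skin (53 cells) and 43.2 in control untreated skin (60 cells), and blood endothelial cells had 186 in labelled-null imiquimod skin (79 cells). Sebocytes, the lipid-making cells of the skin gland, had 40.5 in labelled-null imiquimod (101 cells), 4.02 in labelled-null untreated (83 cells) and 5.99 in control untreated skin (78 cells). Langerhans cells, the antigen-presenting cells of the epidermis, had 33.7 in labelled-null imiquimod skin (91 cells).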
